A study of Mus musculus with 8 samples.

Results

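The genes described here are 7 components of antigen presentation by MHC class II: Cd74, H2-Aa, H2-Ab1, H2-Eb1, H2-DMa, H2-DMb1 and Ciita. They were taken by gene symbol from the 31053 gene rows of each library, and each symbol matched 1 row. The set was proposed with earlier results of these libraries in view. Their levels by cell class and their differences in the Lama4 knockout are therefore given as a description, with no test.

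MHC class II molecules are pairs of an alpha and a beta chain that show fragments of endocytosed protein to CD4+ T cells. In the mouse H2-Aa and H2-Ab1 encode the chains of I-A, and H2-Eb1 encodes the beta chain of I-E. CD74, the invariant chain, occupies the peptide groove while the pair travels to the endosome, and H2-DM, made from H2-DMa and H2-DMb1, exchanges the last piece of CD74 for peptide. CIITA is the coactivator that turns on most of these genes, and interferon gamma is its best known inducer. Dendritic cells, B cells and many macrophages make class II at rest, whereas microglia of the healthy brain make little.

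Single-cell RNA-seq (10x Genomics 3' chemistry, version 3) was done on the cortex of mice 8 weeks old that were perfused with cold buffer. The Lama4-/- mice lack the laminin alpha 4 chain in all cells and were set against their own wild type (WT); the Tek-cre:Lama5-/- mice lack laminin alpha 5 where Tek-Cre is active, in endothelial cells and part of the blood cell lineage, and had a WT group of their own. Both are vascular basement membrane proteins. For each group the brains of 3 mice were pooled and 2 libraries were deposited, so a p-value measures the spread between libraries of a pool and not between mice. The labels do not say whether the WT mice of the Tek-cre:Lama5-/- group carried Cre or floxed alleles. Below, these groups are called Lama4 KO and Lama5 KO.

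Both Lama4 KO files held identical matrices and barcodes and were counted as 1 library, which leaves 7 distinct libraries and no replicate for the Lama4 KO. The 7 libraries held 6295 to 9556 barcodes with 35479306 to 48314458 UMIs (unique molecular identifiers, 1 per captured RNA molecule), and 47239 cells were kept, with a median of 2911 to 6552 UMIs per cell. Any 2 libraries shared at most 20 barcodes. In endothelial-like cells Lama4 was at 45.5 and 44.5 UMIs per 1000000 UMIs of the class (CPM) in its WT and at 0.0596 CPM in the Lama4 KO. Lama5 was at 43.0 and 42.4 CPM in its WT and at 22.6 and 24.8 CPM in the Lama5 KO. Both experiments differ in depth and in the state of the cells, so each knockout was compared with its own WT.

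Cells were clustered without the class II genes and named by marker genes as "-like". There were 26336 endothelial-like, 7656 microglia-like, 4269 oligodendrocyte-like, 2570 smooth muscle-like, 2012 astrocyte-like, 1600 pericyte-like, 610 perivascular macrophage-like, 190 fibroblast-like, 166 T and NK-like, 164 B lineage-like, 102 neutrophil-like, 95 monocyte-like and 31 dendritic-like cells. A further cluster of 55 myeloid cells stayed unnamed. It was led by the class II genes, Lyz2 (lysozyme), Cxcl2 and Il1b (interleukin 1 beta), and its levels of the microglial genes P2ry12 and Tmem119 were 71.8 and 69.1 CPM. These were the summed values over all its cells. The rule that left it unnamed, no marker of its best class (microglia) among its 10 leading genes, was set after the clusters were seen. Those 10 were ranked over all genes, and class II genes took some of the places. The naming of this cluster was thus not independent of class II levels. The cluster held 13 and 12 cells in the WT libraries of the Lama4 experiment, 24 in the Lama4 KO, 2 and 2 in the WT of the Lama5 experiment, and 1 each for both Lama5 KO libraries.

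The promoters of class II genes are known for a shared module of short boxes, the X box bound by the RFX complex and the Y box bound by NF-Y, on which CIITA assembles. RefSeq promoter windows (GRCm38.p6, 250 bases before to 50 after a start site) were matched for H2-Aa, H2-Eb1, H2-DMb1 and H2-DMa and not for Cd74, H2-Ab1 and Ciita. The windows were searched on both strands for GNAAC followed after 15 to 30 bases by TGATTGG, letters that resemble the start of the X box and the Y box. The pair was found in 154 of 32851 promoter windows of the same length (0.469%), and TGATTGG alone in 7.82%. The 3 members with the pair are shown because their spacing can be compared. Each sequence runs 5' to 3' along the gene's strand over the 150 bases before the RefSeq start site, with the boxes in capitals. The RefSeq start site of H2-DMb1 lies inside the gene as GENCODE M21 draws it.
H2-Aa (chr17:34287824-34287973, minus strand): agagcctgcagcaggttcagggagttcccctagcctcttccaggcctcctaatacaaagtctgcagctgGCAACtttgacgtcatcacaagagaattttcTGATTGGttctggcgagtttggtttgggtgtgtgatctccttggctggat
H2-Eb1 (chr17:34305717-34305866, plus strand): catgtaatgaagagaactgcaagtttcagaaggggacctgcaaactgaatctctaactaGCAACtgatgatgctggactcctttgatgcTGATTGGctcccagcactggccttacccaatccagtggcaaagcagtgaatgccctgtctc
H2-DMb1 (chr17:34153041-34153190, plus strand): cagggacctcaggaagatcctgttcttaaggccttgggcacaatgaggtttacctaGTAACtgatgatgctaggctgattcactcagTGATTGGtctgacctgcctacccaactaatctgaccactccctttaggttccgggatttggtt
The gap between the boxes was 26 bases in H2-Aa and H2-DMb1 and 25 in H2-Eb1. The Y-like box began 50, 61 and 63 bases before the start site in H2-Aa, H2-Eb1 and H2-DMb1. Of the other class II chains, H2-Oa, H2-Ob and H2-Eb2 also held the pair. Neither of the 2 windows of H2-DMa nor that of H2-DMb2 held it, which says only that these letters are not in those windows.

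In the GENCODE M21 annotation of GRCm38 (mm10) the chain and H2-DM genes lie close together on chromosome 17: H2-DMa at chr17:34119541-34139101, H2-DMb1 at chr17:34153072-34160230, H2-Ab1 at chr17:34257689-34269419, H2-Aa at chr17:34282744-34287823 on the minus strand, and H2-Eb1 at chr17:34305867-34316674. Cd74 lies at chr18:60803848-60812652 and Ciita at chr16:10480059-10528418. All 7 are protein-coding.

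Levels of the class II genes spanned several orders of magnitude between cell classes. Cd74 was at 15071 to 33756 CPM in dendritic-like cells and at 17913 to 29589 CPM in the unnamed myeloid cluster, as the lowest and highest of the libraries that held such cells. The 31 dendritic-like cells, 0.0656% of all cells, carried 31.9% of all Cd74 UMIs and 38.8% of those of H2-Aa. B lineage-like cells followed at 1715 to 12108 CPM of Cd74, and monocyte-like cells at 104 to 5575 CPM. Perivascular macrophage-like cells (20.2 to 1037 CPM), microglia-like cells (35.9 to 358 CPM) and fibroblast-like cells (32.8 to 454 CPM) formed a middle tier whose ranges overlapped. In endothelial-like cells Cd74 was at 0.522 to 5.67 CPM, beside 0 to 18.5 CPM in astrocyte-like and 0 to 4.76 CPM in oligodendrocyte-like cells, which are not known to make class II at rest. In this order the dendritic-like cells and the unnamed cluster overlapped, as did B lineage-like and monocyte-like cells, the monocyte-like cells and the middle tier, and the classes below it. The libraries of the middle tier and of endothelial-like cells did not overlap.

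**Figure D1:**
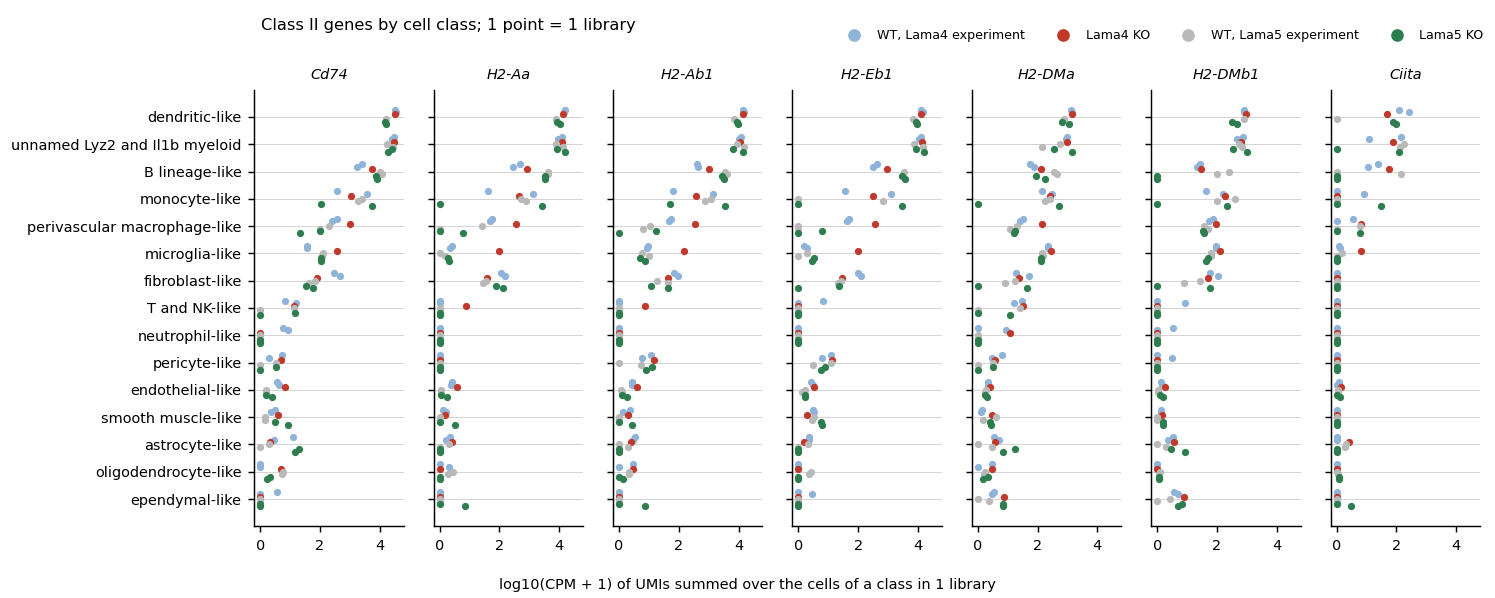
Level of each class II gene, as log10(CPM + 1) of the UMIs summed over the cells of a class in 1 library, by cell class. Each point is 1 library, coloured by group; dendritic-like cells and the unnamed myeloid cluster sit highest in each library that held them for Cd74 and the 3 chain genes, while their ranges meet those of other classes for Ciita and the H2-DM genes, and H2-DMa and H2-DMb1 in microglia-like cells lie at 127 to 272 and 43.2 to 126 CPM.

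The H2-DM genes had another distribution than the chains they serve. Microglia-like cells, 16.2% of all cells, carried 83.7% of all H2-DMa UMIs and 75.0% of all H2-DMb1 UMIs, and 6.43% of those of H2-Aa. Their H2-DMa level was 127 to 272 CPM, against 635 to 1390 CPM in dendritic-like cells. Per UMI of the 3 chain genes together, dendritic-like cells held 0.0534 UMIs of the 2 H2-DM genes, B lineage-like cells 0.0464, and the unnamed myeloid cluster 0.0441. Microglia-like cells of the WT held 29.2 and 31.4 in the Lama4 experiment and 34.8 and 23.0 in the Lama5 experiment. These are ratios of 3' UMIs, compared between classes and not read as ratios of protein. Choroid plexus epithelium-like cells also carried H2-DMb1 with little else. It was at 24.4 CPM in the second WT library of the Lama4 experiment and at 23.8 CPM in the Lama4 KO, where Cd74 was at 0 and 1.75 CPM. In the first WT library 1 cell held 1034 of the 1037 UMIs of Cd74, H2-Aa, H2-Ab1 and H2-Eb1 in that class.

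In microglia-like cells Cd74 was at 35.9 and 36.7 CPM in the WT libraries of the Lama4 experiment and at 358 CPM in the Lama4 KO. The ratio of the summed counts was 9.87 (exact conditional 95% interval 9.10 to 10.7, counting error only). H2-Aa, the I-A alpha chain, was at 1.67 and 1.19 CPM in the WT and at 96.9 CPM in the Lama4 KO, a ratio of 67.4 (46.8 to 101). For the I-A beta chain H2-Ab1 the values were 8.44, 7.82 and 148 CPM, and for H2-Eb1 0.557, 0.891 and 99.0 CPM. Ciita gave 2 and 3 UMIs in the WT libraries and 40 in the Lama4 KO, which is 0.186, 0.297 and 5.44 CPM. The Lama4 KO library was thus above both WT libraries for all 5 genes, while the WT libraries lay close to each other.

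The H2-DM genes, already present in WT microglia-like cells, differed by much less. H2-DMa was at 220 and 218 CPM in the WT and 272 CPM in the Lama4 KO (ratio 1.24, interval 1.18 to 1.31), and H2-DMb1 at 92.0, 93.5 and 126 CPM (1.36, 1.26 to 1.47). The Lama4 KO had no second library, so there is no replicate check of any of these ratios. By a rule of size, at least 2-fold above both WT libraries with 0.5 CPM added, 5 of 7 members were higher, as were 0.247% of the 9293 genes at 5 CPM or more. The members were proposed with this contrast known, so nothing is read from that count. The 23 genes past the rule also included Gbp2, Nlrc5, Il18bp, Ifit2, Rsad2 and Ccl5, genes of the interferon response, and Ttr, Enpp2, Folr1 and Prlr, genes of the choroid plexus. Ttr (transthyretin) was at 151 and 114 CPM in the WT and at 1253 CPM in the Lama4 KO, a library with 115 choroid plexus epithelium-like cells against 27 and 25 in its WT.

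**Figure D2:**
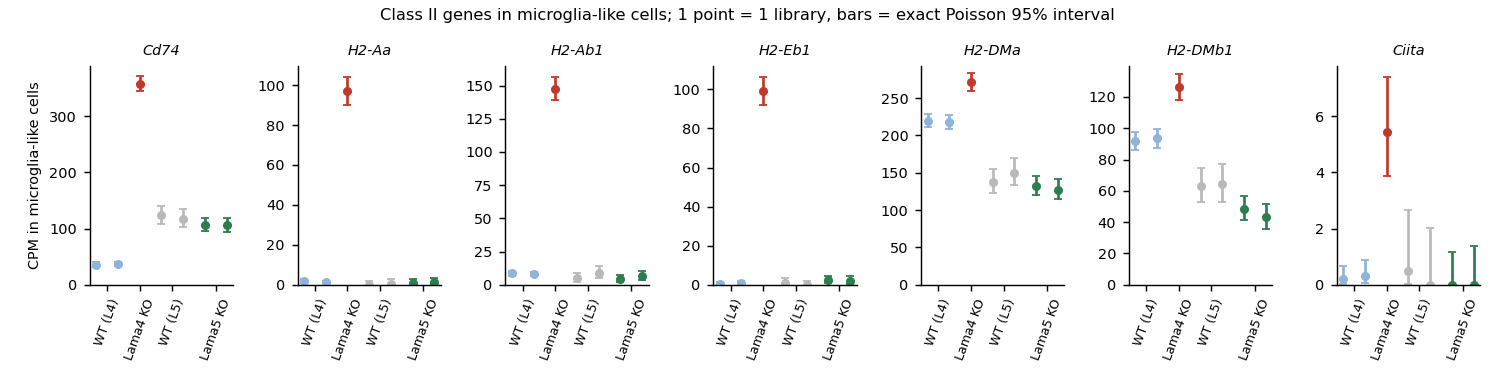
CPM of each class II gene in the microglia-like cells of each library, with exact Poisson 95% intervals for counting error; WT (L4) and WT (L5) are the WT of the Lama4 and Lama5 experiments. The single Lama4 KO library stands above all others for each gene, from 358 CPM for Cd74 to 5.44 CPM for Ciita, and the Lama5 KO libraries lie near their WT.

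The class II transcripts of the Lama4 KO were held by a small part of its microglia-like cells. Of 1357 such cells, 86 had at least 2 of Cd74, H2-Aa, H2-Ab1 and H2-Eb1 detected, and 53 had all 4. In the WT libraries of that experiment 24 of 1539 and 22 of 1480 cells had at least 2, and 1 and 0 had all 4. The 86 cells carried 93.9% of the Cd74 UMIs, 98.0% of those of H2-Aa and 92.5% of those of Ciita in the microglia-like cells of the library, beside 25.8% of those of H2-DMa. The richest of them held 339 UMIs of the 4 genes, against at most 49 in any cell of the other libraries. With each cell thinned to 1000 UMIs, and 60 of 1357 shallower cells left out, the share with at least 2 of the 4 genes was 4.32% in the Lama4 KO (exact binomial 95% interval 3.28 to 5.57%). It was 0 of 1494 and 0 of 1438 cells in its WT, with exact binomial 95% upper limits of 0.247% and 0.256%. Unthinned, the shares were 6.34% against 1.56% and 1.49%, and the median depth was 5751 against 7244 and 7061.5 UMIs. In astrocyte-like cells, taken as the level of free RNA, the thinned share was 0 in all 7 libraries.

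**Figure D3:**
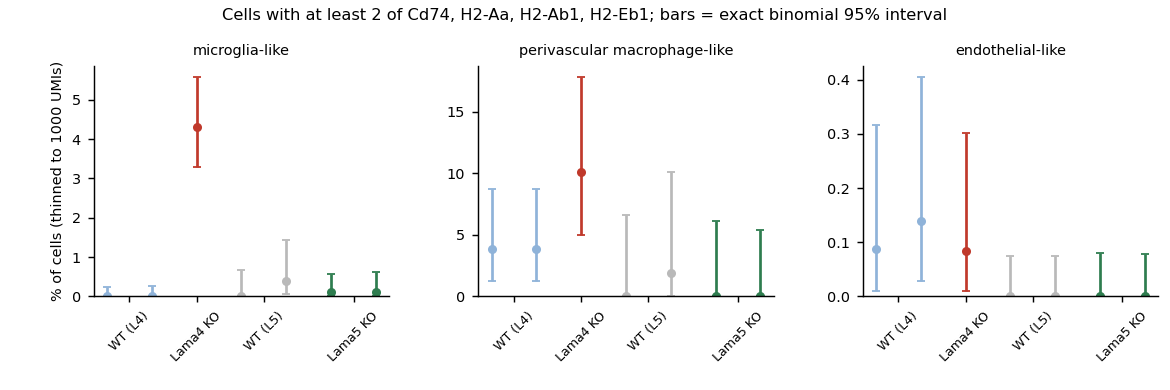
Share of cells, each thinned to 1000 UMIs, with at least 2 of Cd74, H2-Aa, H2-Ab1 and H2-Eb1 detected, by library and class, with exact binomial 95% intervals; the vertical scales differ. In microglia-like cells the Lama4 KO library is at 4.32%, and no other library is above 0.402%.

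The class II-rich cells kept the transcripts that define microglia. Summed over the 9 microglial markers, they were at 20247 CPM, against 24890 CPM in the 1107 cells of the same library with none of the 4 genes. P2ry12 was at 2053 against 2616 CPM, Tmem119 at 1551 against 1699 CPM and Fcrls at 1208 against 2201 CPM. The summed perivascular macrophage markers were at 5.32 against 21.7 CPM, those of monocytes at 10.6 against 12.1 CPM, those of dendritic cells at 47.9 against 55.1 CPM and those of the B lineage at 261 against 242 CPM. Ttr was no higher in them, at 1162 against 1296 CPM. Of the 86 cells, 79 fell in the cluster that held most microglia-like cells of all 3 libraries of the experiment, where they made up 6.86% of the Lama4 KO cells.

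Other genes of the pathway were also higher in these cells. They were compared after the cells had been chosen by their class II UMIs, within 1 library, so the values are a description. Ciita was at 65.7 against 0.347 CPM, H2-DMa at 916 against 216 CPM and H2-DMb1 at 403 against 100.2 CPM. H2-Oa, which pairs with H2-Ob to restrain H2-DM, was at 131 against 40.4 CPM. On the route from interferon gamma to Ciita, Irf1 was at 437 against 157 CPM, while the receptor chains Ifngr1 (669 against 827 CPM) and Ifngr2 (105 against 146 CPM) and the kinases Jak1 (241 against 212 CPM) and Jak2 (21.3 against 17.5 CPM) were near the level of the other cells. The RFX and NF-Y subunits, on which CIITA assembles, ranged from 8.87 to 31.9 CPM in the class II-rich cells and from 11.1 to 47.0 CPM in the others. The protease Ctss, which trims CD74, was at 6885 against 5070 CPM.

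Outside the pathway lists, 59 of 3729 genes with at least 20 UMIs in the class II-rich cells were at least 2-fold higher there, with 5 CPM added. Those described are among the 15 with the largest ratio, chosen by that ratio after the data were seen. They began with Gbp2 (397 against 9.71 CPM), Gbp4 and Iigp1 (56.8 against 0.693 CPM for each), GTPases induced by interferon gamma. Next came the complement component C4b, the class I genes H2-Q7 and H2-Q6, which are near-identical copies whose reads may be split, Il18bp, Ifi204 and Fgl2. Nlrc5, the class I counterpart of Ciita, was at 40.8 against 2.43 CPM, followed by Gbp3, the chemokine Ccl12, Ly6a and Igtp. Over all microglia-like cells of a library, Gbp2 was at 39.2 CPM in the Lama4 KO and at 1.64 to 5.94 CPM in the other 6 libraries. Transcripts of the cytokine itself, Ifng, were not seen in microglia-like cells of any library. In T and NK-like cells Ifng gave 87 and 73 UMIs in the WT of the Lama4 experiment, 54 in the Lama4 KO and 1 to 7 in each library of the Lama5 experiment, from 15 to 29 cells per library.

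**Figure D4:**
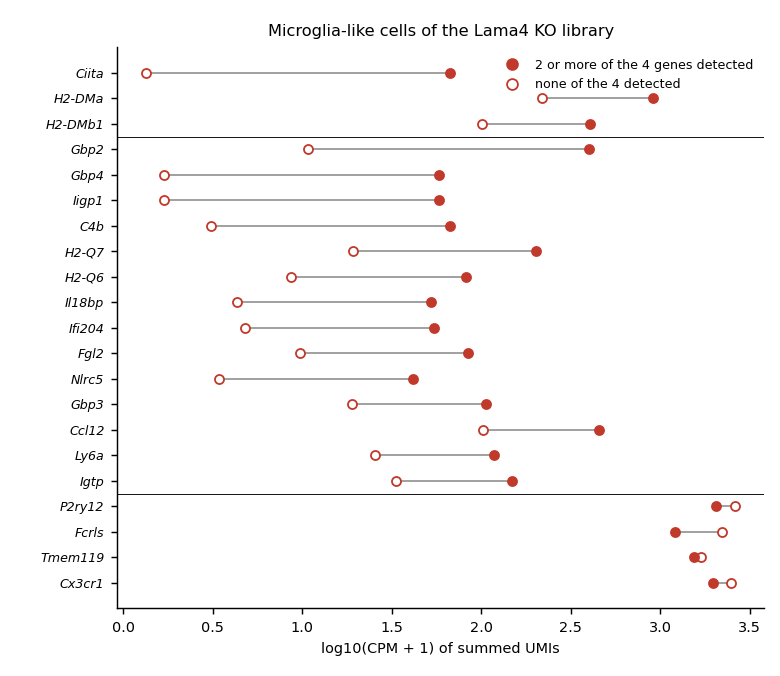
Levels, as log10(CPM + 1), in the 86 microglia-like cells of the Lama4 KO library with at least 2 of the 4 genes detected (filled) and in its 1107 cells with none (open), for 3 members, for the other genes described in the text among the 15 with the largest ratio, and for 4 microglial markers. The filled points lie to the right for the upper groups, Gbp2 at 397 against 9.71 CPM, and at or to the left of the open points for the markers.

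In the Lama5 experiment microglia-like cells gave another picture. Cd74 was at 123 and 117 CPM in the WT and at 107 and 106 CPM in the Lama5 KO, so the groups did not overlap but lay close together. edgeR's quasi-likelihood test on counts summed per library gave a log2 fold change of -0.10 (SE 0.09, Benjamini-Hochberg adjusted p = 0.551 over all genes). The chains were scarcely detected: H2-Aa was at 0 and 0.548 CPM in the WT and 0.952 and 1.11 CPM in the Lama5 KO, and H2-Eb1 at 0.961, 0, 2.22 and 1.84 CPM in the same order. Neither these nor Ciita, with 1 UMI in all 4 libraries, passed the filter on low counts. H2-DMb1 fell, from 62.9 and 64.1 CPM in the WT to 48.5 and 43.2 CPM in the Lama5 KO, which edgeR put at -0.38 on the log2 scale (SE 0.13, adjusted p = 0.0387). H2-DMa, at 138 and 150 CPM against 132 and 127 CPM, gave -0.07 (SE 0.09, edgeR adjusted p = 0.686), and H2-Ab1 gave -0.30 (SE 0.42, edgeR adjusted p = 0.716).

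Thus 1 of 4 members tested passed in microglia-like cells, where 14.7% of the 9593 genes tested passed. The H2-DMb1 call was lost when any 1 of the 4 libraries was left out (edgeR adjusted p = 0.056 to 0.258), without the filter on low counts, under the stricter cell filter and without the cells carrying markers of another immune class. DESeq2 gave it no adjusted p. The share of microglia-like cells with at least 2 of the 4 genes after thinning was 0.104% and 0.112% in the Lama5 KO and 0 and 0.402% in its WT. An exact two-sided permutation test over the libraries (n = 2 and 2) gave p = 1, where 0.3333 is the smallest p this design allows.

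**Figure D5:**
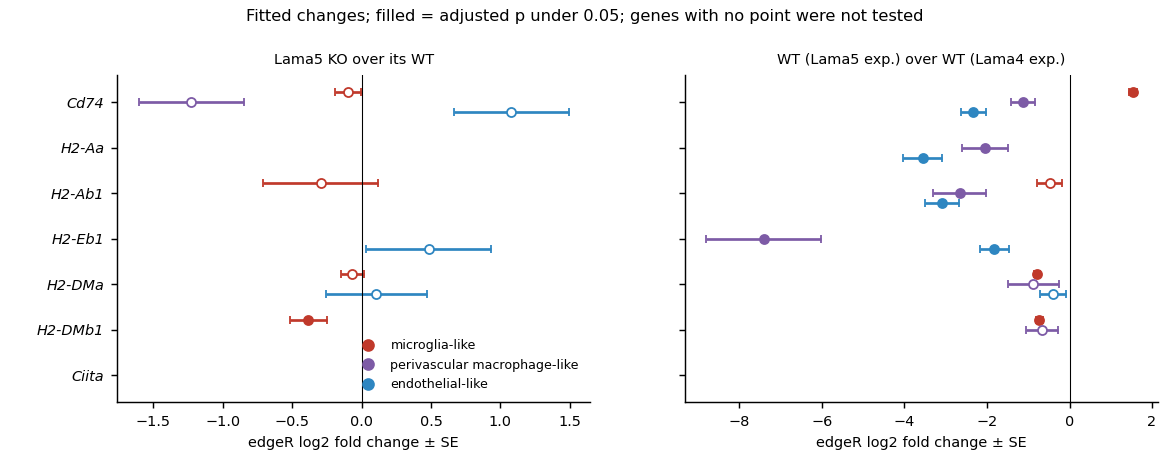
edgeR log2 fold changes with standard errors for the members that passed the filter on low counts, in 3 classes, for the Lama5 KO over its WT (left) and for the WT of the Lama5 over the WT of the Lama4 experiment (right); filled points have an adjusted p under 0.05 and the horizontal scales differ. On the left only H2-DMb1 in microglia-like cells is filled; on the right the point of H2-Eb1 at -7.41 rests on 0 UMIs in 1 group and is no measure of size.

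The WT groups of the experiments were compared as a yardstick for differences between pools. Cd74 in microglia-like cells was higher in the WT of the Lama5 experiment, at 123 and 117 against 35.9 and 36.7 CPM (edgeR log2 change 1.54, SE 0.09, adjusted p = 1.77e-16). H2-DMa (-0.79, SE 0.07, edgeR adjusted p = 2.98e-12) and H2-DMb1 (-0.74, SE 0.09, edgeR adjusted p = 1.42e-08) were lower there, so that 3 of 4 members tested passed, beside 52.3% of all genes tested. The share of cells with at least 1 of the 4 genes after thinning was 10.4% and 10.8% in the WT of the Lama5 experiment, against 3.82% and 2.99% for the other WT, while the share with at least 2 was near 0 in both. Microglia-like cells held 21.4 and 12.6 Cd74 UMIs per UMI of the 3 chain genes in the WT of the Lama5 experiment, from 12 and 17 chain UMIs, and 3.37 and 3.71 in the other WT, from 115 and 100. The ratio was 1.04 in the Lama4 KO and 0.776 in dendritic-like cells. Most microglia-like cells of the Lama5 experiment sat in a cluster of their own, which held 478 and 429 cells of its WT and 8 and 5 of the other WT. Experiment, pool and cluster cannot be told apart here.

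Perivascular macrophage-like cells, the macrophages that line brain vessels, carried more of Cd74 and of the 3 chain genes than microglia-like cells in the Lama4 experiment, and less of both H2-DM genes. H2-Aa was at 55.9 and 49.4 CPM in the WT and at 349 CPM in the Lama4 KO (ratio 6.63, exact interval 5.06 to 8.75, counting error only). H2-Ab1 (53.2, 45.4 and 347 CPM) and H2-Eb1 (49.2, 40.1 and 361 CPM) gave the same order. H2-DMa was at 30.6 and 25.4 CPM in the WT and 140 CPM in the Lama4 KO, and Cd74 at 386, 248 and 1037 CPM. By the rule of size 5 of 7 members were higher, where 3.7% of the 9812 genes at 5 CPM or more were. These UMIs also came from few cells: after thinning, 10 of 99 cells of the Lama4 KO had at least 2 of the 4 genes, which is 10.1% (interval 4.95 to 17.8%), against 5 of 131 in each WT library, which is 3.82% (1.25 to 8.68%). These intervals overlap. Leaving out cells with 2 or more markers of another immune class, a rule that took away 97 of the 104 cells of the Lama4 KO and 127 of 132 and 122 of 134 of its WT, turned the ratio of the 4 summed genes from 4.51 to 0.0559.

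In the Lama5 experiment this class held less of Cd74 and the chains. Cd74 was at 193 and 100.4 CPM in the WT and at 102 and 20.2 CPM in the Lama5 KO, with overlapping groups, and H2-Aa at 24.7, 0, 0 and 5.05 CPM. Cd74 was the 1 member that could be tested, and it did not pass (edgeR log2 change -1.23, SE 0.38, adjusted p = 0.0678; 1.77% of 3108 genes passed). It gained the call with a replicate block and without Lama5 KO library 1, and with doublets kept its log2 change turned to 0.76. Between the WT groups 4 of 6 members tested were lower in the Lama5 experiment (Cd74, H2-Aa, H2-Ab1 and H2-Eb1), where 4.8% of genes were called lower and 12.2% in either direction. The chain genes together gave 7 and 1 UMIs in the WT of the Lama5 experiment. They passed the filter on low counts only through the other WT, so their direction was set by the filter and nothing is read from that count. H2-Eb1 gave 67 UMIs over the WT libraries of the Lama4 experiment but 0 of 391612 UMIs in that of the Lama5 experiment, at least 5.83-fold lower against a floor of 3 counts over the group. Without either WT library of the Lama4 experiment only 1 member passed. The cells of the experiments sat in different clusters: of the 2 that held most of the class in the Lama4 experiment, 1 had 73 and 72 cells of that WT and 0 and 1 of the other, and the next 37 and 41 against 2 and 4, while another cluster had 2 and 3 against 50 and 46.

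The classes that present antigen by profession held too few cells for a test in the Lama5 experiment, with 0 to 4 dendritic-like and 9 to 20 B lineage-like cells per library. In dendritic-like cells of the Lama4 experiment Cd74 was at 33295 and 33756 CPM in the WT and 33060 CPM in the Lama4 KO. The ratio of the 4 summed genes was 0.946 (exact interval 0.920 to 0.973, counting error only), and in the unnamed myeloid cluster it was 1.08 (1.05 to 1.11). Where class II was highest, the Lama4 KO and its WT thus lay close together. Ciita was at 120 and 258 CPM in dendritic-like cells of the WT and at 46.6 CPM in the Lama4 KO, from 31 and 5 UMIs.

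B lineage-like cells split into a cluster with Ms4a1 (CD20), where Cd74 was at 9713 CPM, and a dividing cluster with Vpreb3, a gene of immature B cells, where it was at 472 CPM. In the Lama4 experiment the first held 15 and 10 cells of the WT and 9 of the knockout, and the second 25, 36 and 10. Over the whole class Cd74 was at 2600 and 1715 CPM in that WT, 5311 CPM in the Lama4 KO, 9870 and 12108 CPM in the WT of the Lama5 experiment, and in its knockout 7611 and 8159 CPM. The low values are those of the libraries with the most cells of the immature cluster. In monocyte-like cells the WT libraries of the Lama4 experiment alone spanned 385 to 3632 CPM of Cd74, so the 1121 CPM of the Lama4 KO lay between them; 1 cell held 71.8% of the UMIs of the 4 genes in the Lama4 KO.

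Endothelial-like cells carried few class II transcripts. H2-Aa, H2-Ab1 and H2-Eb1 reached at most 2.92, 2.92 and 2.27 CPM, beside at most 1.59, 2.48 and 1.35 CPM in astrocyte-like cells. In endothelial-like cells the share with at least 1 of the 4 genes after thinning was 0.656% and 0.601% in the WT of the Lama4 experiment and 0.922% in the Lama4 KO. The Lama5 experiment gave 0.204% and 0.102% for its WT and 0.196% and 0.300% for the Lama5 KO. Astrocyte-like cells, with median depths of 1178 to 5305 UMIs against 2605 to 5897, gave 0 to 1.81%. The range of shares in endothelial-like cells lay inside that of astrocyte-like cells, whose highest values were those of the Lama5 KO. In the Lama4 experiment astrocyte-like cells gave 0.722% and 0.417% in the WT and 0 of 310 cells (upper limit 1.18%) in the Lama4 KO. Set library by library, the endothelial-like share was higher in the second WT library and the Lama4 KO of that experiment. It was lower in the first WT library and in each library of the Lama5 experiment. At least 2 of the 4 genes were found in 7 of 25911 endothelial-like cells and in 0 of 1691 astrocyte-like cells. In the Lama5 KO 0 of 3 members tested passed, where 19.0% of the 13180 genes did: Cd74 was at 0.546 and 0.522 CPM in the WT and 0.605 and 1.57 CPM in the Lama5 KO (edgeR log2 change 1.08, SE 0.41, adjusted p = 0.0646). Without Lama5 KO library 1 the knockout was library 2 alone. It held 68 UMIs of the 4 genes, against 34 and 24 in the WT and 30 in library 1. A gene can pass the filter on low counts there through that 1 library. The calls gained (Cd74, H2-Aa and H2-Ab1) are therefore not read as a rise. Without the filter on low counts Cd74, H2-Ab1 and H2-DMb1 passed. Between the WT groups Cd74, H2-Aa, H2-Ab1 and H2-Eb1 were lower in the Lama5 experiment (4 of 5 members tested, where 27.2% of genes were called lower and 56.6% in either direction), with log2 fold changes from -1.82 to -3.55. The chain genes passed the filter on low counts only through the WT of the Lama4 experiment. Their direction was thus set by the filter, and nothing is read from it. Here too the clusters differed: the largest held 6 and 2 cells of the WT of the Lama4 experiment against 1634 and 1663 of the other, and another 1360 and 1246 against 25 and 12. In the Lama4 KO the ratio of the 4 summed genes was 1.68 (exact interval 1.41 to 2.00, counting error only), and 0.797 without the cells carrying markers of another immune class; 1 cell held 28.6% of those UMIs.

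Pericyte-like cells, which wrap the capillaries, showed H2-Ab1 and H2-Eb1 without the I-A alpha chain. H2-Ab1 was at 10.5 and 5.14 CPM in the WT of the Lama4 experiment, 13.5 CPM in the Lama4 KO, 0 and 4.38 CPM in the WT of the Lama5 experiment, and in its knockout 11.6 and 7.34 CPM. H2-Eb1 was at 2.19 to 12.2 CPM, and H2-Aa gave 0 UMIs in all 7 libraries. These UMIs were spread over cells, with at most 2 in any 1 cell, and 0 of 1511 cells had 2 of the 4 genes after thinning. The pericyte-like class held 0.141 Cd74 UMIs per chain UMI, against 0.62 in endothelial-like cells. None of the members could be tested in pericyte-like or smooth muscle-like cells.

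Fibroblast-like cells were the stromal class with the most class II, and there the Lama4 KO lay below its WT. Cd74 was at 301 and 454 CPM in the WT and 81.0 CPM in the Lama4 KO, and the ratio of the 4 summed genes was 0.274 (exact interval 0.223 to 0.333, counting error only). By the rule of size 3 of 6 members were lower, where 3.06% of genes were. From 31 to 46 cells were behind each value, and 1 cell held 37.1% and 38.9% of these UMIs in the WT libraries and 28.2% in the Lama4 KO.

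In glia 1 member passed in each of 2 classes of the Lama5 KO. Cd74 rose in astrocyte-like cells, from 1.05 and 0 CPM in the WT to 18.5 and 13.6 CPM (edgeR log2 change 4.55, SE 0.86, adjusted p = 0.000791; 18.5% of genes passed). DESeq2 gave an adjusted p of 0.0597, and the call was lost without WT library 1 or 2 (edgeR adjusted p = 0.141 and 0.217). With doublets kept, under the stricter cell filter and without either Lama5 KO library, Cd74 did not pass the filter on low counts. It passed that filter only through the Lama5 KO, so its direction was set by the filter and nothing is read from the call. In the same cells the 9 microglial markers summed to 364 and 347 CPM in the WT and to 1385 and 1078 CPM in the Lama5 KO, all 9 were detected in each library, and their part in the result was not tested. Cd74 fell in oligodendrocyte-like cells (edgeR log2 change -2.23, SE 0.41, adjusted p = 0.00012; 11.0% of genes passed). DESeq2 gave this no adjusted p. The Lama5 KO libraries held 6 UMIs of the 4 genes each, so Cd74 passed the filter on low counts only through the WT. Its direction was thus set by the filter, and nothing is read from the call. In these cells 1 cell held 90 of the 94 UMIs of the 4 genes in the first WT library and 1 cell 59 of 65 in the second. In neuron or neuroblast-like cells of the Lama4 KO 6 of 6 members at 5 CPM or more were higher by the rule of size, where 5.74% of genes were. There 1 of 42 cells held 88 of the 93 UMIs of the 4 genes. The WT libraries of that experiment held 0 and 3 such UMIs. These genes were thus at 5 CPM or more mainly through the Lama4 KO, which all but set their direction, and nothing is read from that count.

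The rest of the pathway was followed through lists of genes. In microglia-like cells of the Lama5 KO, of 9 genes on the route from interferon gamma to Ciita 1 rose and 3 fell: Irf1 (log2 fold change -0.76), the receptor chain Ifngr1 (-0.32) and Irf8 (-0.17) fell, and Spi1 (0.38), the macrophage factor PU.1, rose. Of 8 endosomal proteases and related genes tested 1 rose and 3 fell, with Ctsd (-0.24) and Ctsh (-0.19) lowest and Ctsb at 0.10. Of 8 turnover and surface partners 3 rose and 2 fell; March1, a ligase that removes class II from the surface, fell (-0.58), and Cd44 (2.38) and Cd63 (0.47) rose. None of the 7 RFX, NF-Y and CREB genes, the 2 other class II chains or the 4 costimulation genes tested passed. All of these rest on edgeR adjusted p under 0.05 over all genes, against the 14.7% of genes called. The median log2 fold change was 0.00 on the interferon gamma route and -0.06 for the proteases, beside -0.01 over all genes.

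The same lists in endothelial-like cells, again for the Lama5 KO, gave 3 of 9 genes of the interferon gamma route higher and 1 lower: Irf8 (0.65), Socs1 (0.30) and Jak2 (0.16) rose, and Ifngr1 fell (-0.18). In this class 10.5% of all genes rose and 8.56% fell by the same test. Of the proteases Ctss (0.50), Lgmn (0.23) and Ctsd (0.11) rose and Ctsh fell (-0.13). Of 5 costimulation genes Cd86 (0.92), Icosl (0.59) and Cd274 (0.36), the ligand PD-L1, rose and Cd200 fell (-0.15). The macrophage genes Ctss, Irf8 and Cd86 were at 14.6, 6.10 and 2.56 CPM or less in these cells, against 2974 and 324 CPM or more for Ctss and Irf8 in microglia-like cells, and microglial RNA among endothelial-like cells was not tested as a source. In microglia-like cells of the Lama4 KO, no gene of the pathway lists other than the members and the interferon gamma route was past the rule of size.

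Across 85 sums of a class in a library (16 classes, 12639 genes of at least 20 CPM in some sum), the non-members whose log2(CPM + 1) profile was most like the mean of Cd74, H2-Aa, H2-Ab1 and H2-Eb1 were H2-DMb2 (Pearson r = 0.739), Ms4a4c (0.725), Rnase6 (0.710), Serp1 (0.664) and Hpse (0.647). H2-DMb2 is a near copy of H2-DMb1, and their reads may be split. Among members, the chains were closest to each other (r = 0.899 to 0.919), and Ciita was furthest from the H2-DM genes (0.487 and 0.499). The points share libraries and depth, so these are descriptions with no test.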

How the data were processed

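Single-cell RNA-seq of mouse cortex was deposited as 8 samples of 4 groups. Cell Ranger 3.1.0 wrote the matrices, per the file headers, and the submitters' processing notes name mm10, Cell Ranger and Seurat 3.1. The deposited values are raw counts of UMIs per gene and cell barcode. Both Lama4 KO matrices were identical and were used once.

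Barcodes with under 500 genes (4352), 15% or more mitochondrial UMIs (2355) and called doublets (3015) were removed. Cells were clustered into 46 clusters (2000 variable genes without class II genes, 30 components, 15 neighbours, resolution 1; Python 3.11.15, scikit-learn 1.9.0, igraph 0.11.9) and named from marker lists. UMIs were summed per class and library and given per 1000000 UMIs (CPM). Where each library held at least 30 cells of a class, edgeR 4.0.16 (filterByExpr, TMM, quasi-likelihood test, adjusted p under 0.05 over all genes) was fitted, with DESeq2 1.42.0 as an alternative (R 4.3.3). With 1 Lama4 KO library there was no test. Poisson, binomial and ratio intervals are exact at 95% and cover counting error only. Shares were taken after thinning to 1000 UMIs. The fit was checked on simulated counts. The alternatives varied scaling, tool, filters, libraries, doublets, clustering and cells carrying markers of another immune class.

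The members and lists were chosen with earlier results of these data known. All members are named, with genes of the pathway lists and the 5 genes most like the members; genes that mark the class II-rich cells were chosen after their values were seen. Of 31053 gene IDs, 30934 were in GENCODE M21. Some genes are not reported here. Depth was 35479306 to 48314458 UMIs per library, and replicate numbers did not pair the libraries.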

Additional observations from a re-analysis of the deposited data

Results flagged for a closer look

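In microglia-like cells 3 of 11 results checked differed in opposite directions between the knockouts, by the order of the libraries alone. The Lama4 KO library lay on one side of its own WT, and both Lama5 KO libraries on the other side of theirs. Cd74 was at 358 CPM in the Lama4 KO, above both WT libraries (35.9 and 36.7 CPM), while the Lama5 KO (107 and 106 CPM) lay below its WT (123 and 117 CPM). H2-DMa was at 272 CPM against 220 and 218 CPM, and at 132 and 127 CPM against 138 and 150 CPM. H2-DMb1 was at 126 CPM against 92.0 and 93.5 CPM, and at 48.5 and 43.2 CPM against 62.9 and 64.1 CPM. The difference between the knockouts was not tested, since the Lama4 KO had 1 library.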

How the results depend on the processing

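In microglia-like cells of the Lama5 KO the 1 member called (H2-DMb1) became 0 with DESeq2, without the filter on low counts, with the stricter cell filter and without cells carrying markers of another immune class, and 0 to 0 with 1 library left out; its log2 fold change stayed negative throughout. All genes called there numbered 1411 with edgeR and 465 with DESeq2, and 883 without Lama5 KO library 1. In endothelial-like cells 0 members became 3 without the filter on low counts and 0 to 3 with 1 library left out (3 without Lama5 KO library 1), and 2508 genes became 954 with DESeq2. In perivascular macrophage-like cells 0 became 0 to 1 with 1 library left out; 55 genes became 14 with DESeq2, 24 to 46 with 1 library left out and 35 at clustering resolution 2. In the other classes 2 became 0 with DESeq2, 7 without the filter, 1 with doublets kept, 1 with the stricter cell filter and 1 to 3 with 1 library left out. Between the WT groups, the 4 members called in perivascular macrophage-like cells became 1 with DESeq2, 1 with doublets kept, 0 with the stricter cell filter, 1 at resolution 2 and 1 to 4 with 1 library left out. There 737 genes became 234 with DESeq2, against 5887 and 3742 in microglia-like and 7511 and 4806 in endothelial-like cells. These alternatives of the WT comparison were added after seeing the data.

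A replicate block changed 1 call: Cd74 in perivascular macrophage-like cells of the Lama5 KO passed (log2 fold change -1.22, edgeR adjusted p = 0.0329), so that 0 members became 1. Same-numbered libraries did not deviate together (r = -0.06 to 0.06), so the numbers are no pairing.

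The ratio of the 4 summed genes in the Lama4 KO was 15.1 in microglia-like cells and 19.2 without cells carrying markers of another immune class, 13.7 with doublets kept, 16.5 with the stricter filter and 13.7 at resolution 2. In perivascular macrophage-like cells 4.51 became 0.0559, 6.25, 6.16 and 6.40 in that order, and 3.85 to 5.46 with 1 WT library left out. Leaving out those cells also turned Cd74 (0.0378), H2-Aa (0.118), H2-Ab1 (0), H2-Eb1 (0.109) and H2-DMb1 (0) there, from the 7 cells kept, and the endothelial-like sum (0.797). The monocyte-like sum of 0.573 became 0.293 to 4.27 with 1 WT library left out, 3.25 without those cells and 1.07 with doublets kept. Some uncalled log2 fold changes of the Lama5 KO changed sign: H2-Ab1 in microglia-like cells (-0.68 to 0.17 with 1 library left out), Cd74 in perivascular macrophage-like cells (from -1.23 to 0.76 with doublets kept), and in endothelial-like cells H2-Eb1 (-0.0247 to 1.31) and H2-DMa (-0.19 to 0.37) with 1 library left out, and H2-DMa without cells carrying other markers (-0.11). The difference in the share of microglia-like cells was -0.0929 percentage points, and -1.50 for at least 1 of the 4 genes. In endothelial-like cells it was 0, and 0.0103 with doublets kept, 0.0141 with the stricter filter, 0.0114 without cells carrying other markers, 0.0105 thinned to 500 UMIs and 0.0953 for at least 1 gene. The cause of these shifts was not tested. Few cells limit the dendritic-like, B lineage-like and monocyte-like values.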
